A study of Mus musculus with 20 samples.

Results

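The 10 genes Pdgfra, Cspg4, Vcan, Gpr17, Neu4, Bcas1, Enpp6, Olig1, Olig2 and Sox10, which mark successive stages of the oligodendrocyte lineage, were followed in mouse cortex by bulk RNA-seq. The first 3 mark precursors, the next 4 committed cells and the last 3 the lineage as a whole. They were chosen by symbol, and all 10 were present among the 43346 genes of the count table and among the 19623 that passed the low-count filter. The 4 groups of 5 libraries were KI at 10 months, control at 10 months, KI at 3 months and control at 3 months. Every animal, controls included, carried the 5xFAD transgenes (5xFAD+/-), which express human amyloid precursor protein and presenilin with familial Alzheimer's disease mutations from a neuronal Thy1 promoter. There was no group without the transgenes, so age cannot be told apart from time with amyloid. Control mice had wild-type Abca7, a lipid transporter gene. KI mice carried an alanine-to-serine knockin of Abca7, and the KI label does not say whether in one or both copies. Per the protocol the mice were male littermates. Whether every library came from its own animal is not stated, and the p-values therefore rest on library-to-library spread.

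Oligodendrocyte precursors persist in the adult cortex, where they divide and are found throughout the tissue. Some of them leave the cycle, pass through a brief committed stage in which the precursor receptors are lost and Gpr17 and Enpp6 are switched on, and then either die or become myelinating oligodendrocytes. The lineage transcription factors Olig1, Olig2 and Sox10 are present along the whole of this course. Because committed cells are few and short-lived, their transcripts are used as a sign of new oligodendrocytes.

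Library totals ran from 42896149 to 57447015 counts, and the 10 genes held between 130 and 7864 counts in any library. A single amino acid substitution cannot be read from gene counts, so the genotype labels were not checked. Xist had 54206 counts and Ddx3y 1 in the library of KI replicate 5 at 10 months, against at most 218 and at least 2382 elsewhere, which does not match the male sex of the protocol. KI replicate 3 at 3 months had the lowest slope of expression on transcript GC content, -0.45 on the log2 scale per 10 percentage points of GC. Thalamus markers were summed in CPM (counts as a share of the library total, scaled by TMM). They summed to between 158 and 310 CPM in KI at 3 months and to between 109 and 123 CPM in KI at 10 months. In control libraries they summed to between 110 and 125 CPM at 10 months and to between 115 and 232 CPM at 3 months. Choroid plexus markers summed to between 320.2 and 2445 CPM in KI and between 318.5 and 3477 CPM in control at 10 months. At 3 months they summed to between 356.4 and 3399 CPM in KI and between 379 and 2097 CPM in control. The part of cortex cells in the thalamus and choroid plexus sums was not tested, so the lowest sums need not mean tissue from outside cortex. The calls with age in KI are given with and without KI replicate 3 at 3 months and KI replicate 5 at 10 months. The thalamus sums of KI at 3 months were all above those of KI at 10 months, so thalamus content and age cannot be told apart there by leaving libraries out.

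Gpr17 was the 1 gene of the 10 whose level differed with age past the test, lower at 10 months than at 3 months in KI. Of all genes tested, 8.06% were called with age in KI and 4.07% in control. No gene of the 10 was called between KI and control, where 0.0612% of all genes tested were called at 10 months and 0.0255% at 3 months. The precursor genes differed by between -0.08 and 0.10 on the log2 scale in the age comparisons, and their 95% intervals all included 0. The other committed genes and the lineage-wide genes had age differences of either sign, none of them called.

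Per kilobase of exon, the order of levels at 3 months in control was Bcas1, Olig1, Gpr17, Pdgfra, Sox10, Olig2, Neu4, Vcan, Cspg4 and Enpp6. Bcas1, an early myelin-associated protein that mature oligodendrocytes also carry, led at 29.0 ± 5.07 CPM per kb (SD, n = 5). Olig1 followed at 13.9 ± 0.882 CPM per kb, and Enpp6 was lowest at 1.25 ± 0.144 CPM per kb. Gpr17 and Pdgfra were neighbours whose libraries overlapped, at 11.9 ± 1.10 and 11.1 ± 0.699 CPM per kb. Neu4 and Vcan also overlapped, at 2.09 ± 0.12 and 2.01 ± 0.168 CPM per kb, as did Vcan and Cspg4, at 1.72 ± 0.206 CPM per kb for Cspg4. Libraries of the other neighbours in this order did not overlap. In KI at 10 months Gpr17 stood at 6.46 ± 0.744 CPM per kb, below Pdgfra at 11.6 ± 0.638 CPM per kb, with no overlap of their libraries. There its libraries overlapped those of Sox10, at 7.01 ± 1.02 CPM per kb.

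**Figure D1:**
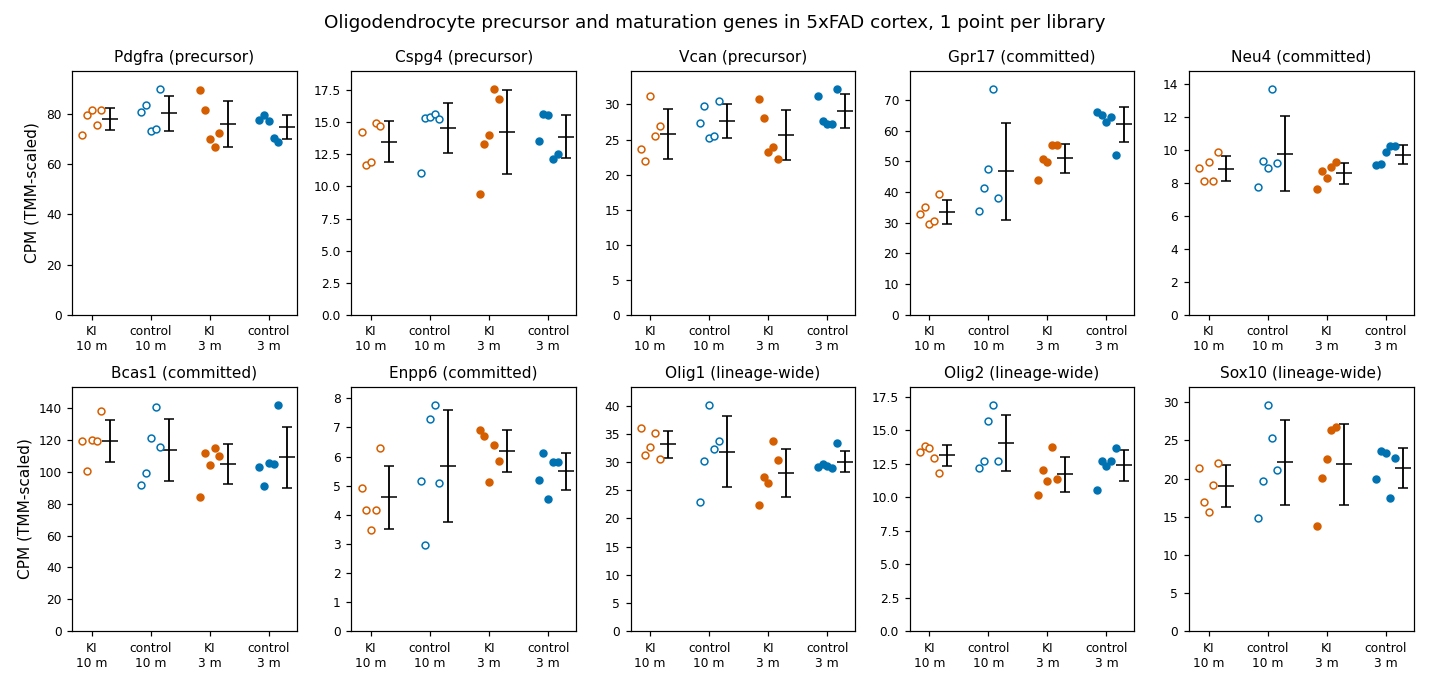
TMM-scaled CPM of each of the 10 genes (vertical axis, from 0) in the 20 libraries, by group, with 10-month libraries as open and 3-month libraries as filled points, and the group mean with its SD beside them. Gpr17 libraries of KI at 10 months all lie below those of KI at 3 months, and 1 control library at 10 months stands at 73.6 CPM, above every other library.

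Promoter sequences from RefSeq (GRCm38.p6, 250 bases before to 50 after the start site) were matched by symbol for 6 of the 10 genes: Pdgfra, Cspg4, Vcan, Neu4, Enpp6 and Olig2. They are shown for Pdgfra and Vcan, which moved together between libraries of a group, and for Olig2, which moved against Pdgfra (values are given with the correlations). Capitals mark the letters TATAAA.
Pdgfra, chr5:75152001-75152300, plus strand: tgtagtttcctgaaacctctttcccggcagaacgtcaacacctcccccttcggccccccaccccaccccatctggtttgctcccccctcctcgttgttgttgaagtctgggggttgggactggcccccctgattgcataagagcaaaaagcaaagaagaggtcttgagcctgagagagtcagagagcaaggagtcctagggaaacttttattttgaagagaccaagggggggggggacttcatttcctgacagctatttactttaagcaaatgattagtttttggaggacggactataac
Vcan, chr13:89742463-89742762, minus strand: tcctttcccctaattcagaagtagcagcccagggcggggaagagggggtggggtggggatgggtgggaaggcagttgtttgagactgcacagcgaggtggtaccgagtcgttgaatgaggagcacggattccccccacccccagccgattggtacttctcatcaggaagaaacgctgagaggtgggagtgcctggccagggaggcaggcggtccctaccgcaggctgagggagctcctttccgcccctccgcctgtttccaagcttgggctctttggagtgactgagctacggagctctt
Olig2, chr16:91225300-91225599, plus strand: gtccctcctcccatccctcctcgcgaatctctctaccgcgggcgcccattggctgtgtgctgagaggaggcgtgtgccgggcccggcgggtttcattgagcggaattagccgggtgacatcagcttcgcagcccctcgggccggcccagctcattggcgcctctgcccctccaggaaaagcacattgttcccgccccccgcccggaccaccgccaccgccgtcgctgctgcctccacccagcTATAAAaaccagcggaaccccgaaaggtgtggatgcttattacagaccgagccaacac

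The GC content of these windows was 51% for Pdgfra, 61% for Vcan and 65% for Olig2. Searched on both strands, the E-box CAGCTG, a letter pattern bound by bHLH factors, was in 0 of the 6 promoters, against 16.3% of all 32851 promoters of 300 bases. ACAAAG, a pattern bound by SOX factors, was also in 0 of the 6, against 18.7% of all promoters. TATAAA, searched after the sequences had been read, was in 1 of the 6, at position -8 of Olig2, against 13.6% of all promoters. The motifs do not overlap one another in these 6 windows.

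Pdgfra (mm10 chr5:75152291-75198204) encodes the receptor through which PDGF keeps precursors dividing. It stood at 71.7, 79.5, 81.4, 75.5 and 81.7 CPM in KI at 10 months and at 80.7, 83.5, 73.3, 74.1 and 90.03 CPM in control at 10 months. At 3 months it stood at 89.5, 81.5, 70.03, 67.03 and 72.5 CPM in KI and at 77.7, 79.5, 77.3, 70.6 and 68.9 CPM in control. The 4 groups overlapped and none stood apart. The difference between KI and control was -0.04 ± 0.08 on the log2 scale at 10 months (SE, 95% interval -0.20 to 0.12) and 0.03 ± 0.08 at 3 months (interval -0.14 to 0.19). Between 10 and 3 months it was 0.03 ± 0.08 in KI (interval -0.13 to 0.19) and 0.10 ± 0.08 in control (interval -0.06 to 0.26). Fibroblasts also carry Pdgfra and Vcan. Their 12 markers summed to between 191 and 215 CPM in KI and between 146 and 272 CPM in control at 10 months. At 3 months they summed to between 210.5 and 325 CPM in KI and between 123 and 262 CPM in control. None of the 12 was called in these 4 comparisons, but without KI replicate 3 at 3 months and KI replicate 5 at 10 months 3 of the 12 were called lower with age in KI. In that fit 1571 of all genes tested were called with age in KI, against 1582 with all libraries. The part of fibroblasts in the Pdgfra and Vcan values was not tested.

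Cspg4 (chr9:56865104-56899870), the NG2 proteoglycan by which precursors are stained and which pericytes also carry, averaged 13.5 ± 1.59 CPM in KI and 14.5 ± 1.96 CPM in control at 10 months (n = 5 each, SD). At 3 months it averaged 14.2 ± 3.25 CPM in KI and 13.9 ± 1.66 CPM in control. KI at 3 months had the widest spread, 9.41 to 17.6 CPM, with its lowest value in replicate 3. The difference between KI and control at 3 months was 0.04 ± 0.14 on the log2 scale, and 0.16 ± 0.12 without that library. Its age difference was -0.08 ± 0.14 in KI and 0.07 ± 0.14 in control. The 10 pericyte markers summed to between 203 and 253 CPM in KI and between 221 and 269 CPM in control at 10 months. At 3 months the sums were between 243 and 271 CPM in KI and between 218 and 288 CPM in control. None was called with age, and their part in the Cspg4 value was not tested.

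Vcan (chr13:89655312-89742509) encodes versican, a matrix proteoglycan made by precursors and also by neurons and fibroblasts. It averaged 25.8 ± 3.55 CPM in KI and 27.7 ± 2.40 CPM in control at 10 months. At 3 months it averaged 25.6 ± 3.61 CPM in KI and 29.1 ± 2.43 CPM in control (n = 5 each, SD). The KI libraries ran lower than the controls on average at both ages, with overlap. Averaged over ages the genotype difference was -0.14 ± 0.07 on the log2 scale (interval -0.29 to 0.01, edgeR adjusted p = 0.781).

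Gpr17, a G protein-coupled receptor that marks committed cells and holds them back from maturing, lies on chromosome 18 (mm10 chr18:31942997-31949636). In KI at 10 months it stood at 32.9, 35.1, 29.7, 30.7 and 39.4 CPM, against 43.9, 50.8, 49.8, 55.3 and 55.3 CPM in KI at 3 months. Every 10-month KI library was below every 3-month KI library. The difference was -0.60 ± 0.15 on the log2 scale (interval -0.92 to -0.29), or 0.658-fold, with an edgeR quasi-likelihood p of 0.014 after Benjamini-Hochberg adjustment over all genes tested. Of all genes tested, 8.06% were called in this comparison, 2.41% as lower, and 1.83% were lower with no overlap between the groups. With each KI library left out in turn Gpr17 was called every time, at adjusted p of 0.00967 to 0.0435. Without both KI replicate 3 at 3 months and KI replicate 5 at 10 months the difference was -0.62 ± 0.17 (adjusted p = 0.0306). In bulk tissue, fewer cells that express a gene and less RNA of it per cell cannot be told apart.

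In control at 10 months Gpr17 stood at 33.7, 41.2, 47.7, 73.6 and 37.9 CPM, against 66.0, 65.0, 62.8, 64.4 and 52.0 CPM in control at 3 months. Of the 10-month controls, 4 were below all 3-month controls, and replicate 9 was above all of them. The age difference in control was -0.41 ± 0.15 (interval -0.72 to -0.09) and missed the threshold (adjusted p = 0.179). Members called in this comparison were 0 of 10, against 4.07% of all genes tested. At an unadjusted p under 0.05, Gpr17 passed and the other 9 did not, against 13.6% of all genes tested. Limma-voom with quality weights called Gpr17 here (-0.49, adjusted p = 0.0197), and DESeq2 called 0 of 10. Without replicate 9 the difference was -0.63 ± 0.10 and was called (edgeR adjusted p = 0.000584). Of the 10 fits with a control library left out, this was the only 1 that called Gpr17 with age in control.

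The age difference of Gpr17 in KI and that in control were not shown to differ. Their difference, the genotype by age interaction, was -0.20 ± 0.21 (interval -0.64 to 0.24, edgeR adjusted p = 0.999), and it was 0.01 ± 0.14 without replicate 9 of the 10-month controls. Averaged over genotypes, a comparison added after the data were seen, Gpr17 was lower at 10 months, at -0.50 ± 0.11 on the log2 scale, or 0.705-fold (edgeR adjusted p = 0.00244). In that comparison 12.1% of all genes tested were called, 3.95% as lower.

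Between genotypes, Gpr17 averaged 33.6 ± 3.86 CPM in KI and 46.8 ± 15.8 CPM in control at 10 months. At 3 months it averaged 51.01 ± 4.73 CPM in KI and 62.04 ± 5.73 CPM in control (n = 5 each, SD). The groups overlapped at both ages. The genotype difference was -0.48 ± 0.15 at 10 months (interval -0.80 to -0.17, edgeR adjusted p = 0.421) and -0.28 ± 0.15 at 3 months (interval -0.59 to 0.03). Without replicate 9 of the controls the 10-month difference was -0.27 ± 0.10 (adjusted p = 0.522). No call was made at either age or on average.

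With age, thalamus markers were called lower in KI for 10 of 10 tested and in control for 2 of 10 (edgeR). Among all genes tested, the share called lower was 2.41% in KI and 0.357% in control. Shox2, a thalamic transcription factor, averaged 0.0377 CPM in KI and 0.023 CPM in control at 10 months, against 4.29 CPM in KI and 1.81 CPM in control at 3 months. Tcf7l2, which thalamic neurons and newly formed oligodendrocytes both carry, differed by -1.50 ± 0.30 on the log2 scale in KI (adjusted p = 0.00225) and by -0.68 ± 0.30 in control (adjusted p = 0.287). Choroid plexus markers had fold changes below 0 for 10 of 10 in KI, with a median of -1.04, and above 0 for 10 of 10 in control, with a median of 0.72, and 0 were called in either. The part of tissue content in the Gpr17 value of KI was not tested. Lims2, a gene whose span (chr18:31931507-31958619) contains Gpr17, differed with age by 0.14 ± 0.18 in KI, with a mean of 343 counts. Whether counting used strand is not known, so reads of the overlap may sit with either gene.

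**Figure D2:**
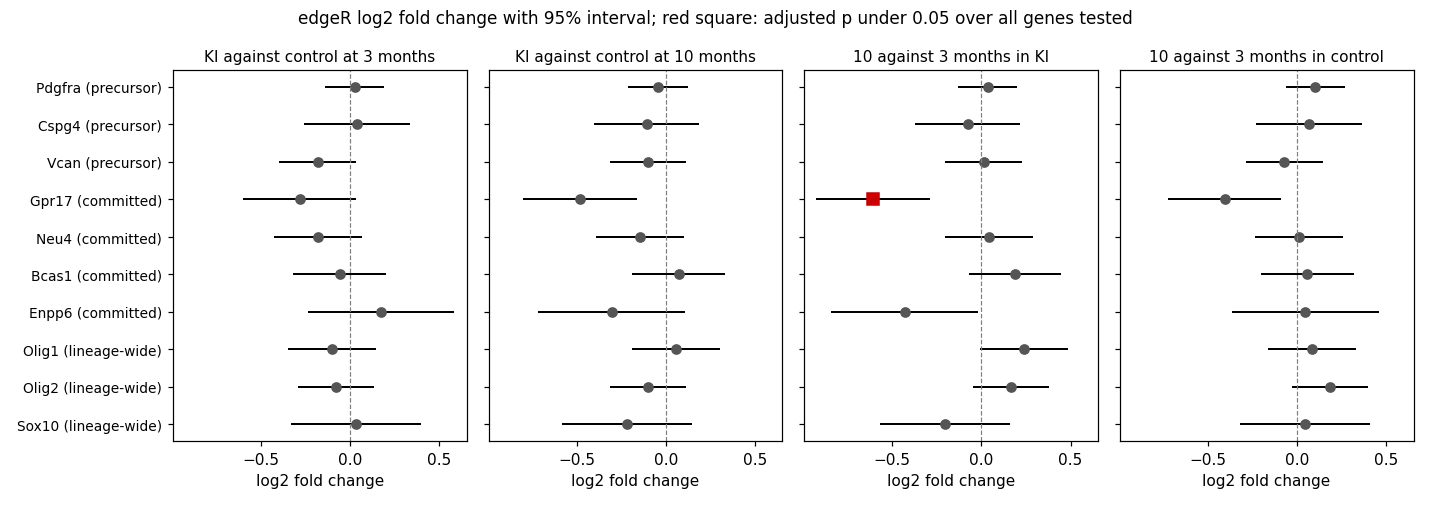
Log2 fold changes of the 10 genes with 95% intervals (horizontal axis, rows are genes) in the genotype comparison at each age and the age comparison in each genotype. Gpr17 at 10 against 3 months in KI is the 1 called value, at -0.60.

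Enpp6 (chr8:46986925-47094895), a choline phosphodiesterase of newly forming oligodendrocytes, was the other committed-cell gene with a lower mean at 10 months in KI. It stood at 4.91, 4.17, 3.47, 4.15 and 6.29 CPM in KI at 10 months, against 6.90, 6.71, 5.12, 6.40 and 5.86 CPM in KI at 3 months. In control it stood at 5.18, 2.97, 7.31, 7.77 and 5.10 CPM at 10 months and at 5.18, 6.13, 4.54, 5.83 and 5.81 CPM at 3 months. The KI groups overlapped through replicate 7 at 10 months, and the 10-month controls lay on both sides of the 3-month controls. The age difference in KI was -0.43 ± 0.20 (interval -0.84 to -0.02) and failed the adjustment (edgeR adjusted p = 0.205). In control it was 0.05 ± 0.19, and the interaction was -0.48 ± 0.28 (edgeR adjusted p = 0.999).

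Neu4 (chr1:94020451-94028334), a sialidase, had nearly equal means at both ages. It averaged 8.84 ± 0.754 CPM in KI and 9.77 ± 2.28 CPM in control at 10 months. At 3 months the means were 8.57 ± 0.632 CPM in KI and 9.70 ± 0.559 CPM in control (n = 5 each, SD). Its age difference was 0.04 ± 0.12 in KI and 0.01 ± 0.12 in control. Averaged over ages the genotype difference was -0.16 ± 0.08 (edgeR adjusted p = 0.781). Bcas1 (chr2:170346991-170427845) had a higher mean at 10 months, at 119.7 ± 13.3 CPM against 105 ± 12.3 CPM in KI and 114 ± 19.4 CPM against 109 ± 19.2 CPM in control. The age differences were 0.19 ± 0.12 in KI (interval -0.07 to 0.44) and 0.06 ± 0.12 in control, and neither passed.

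Olig1 and Olig2 had higher means at 10 months in both genotypes, without a call. Olig1 (chr16:91269772-91271933) stood at 36.05, 31.3, 32.6, 35.2 and 30.6 CPM in KI at 10 months, against 22.3, 27.4, 26.3, 33.8 and 30.4 CPM in KI at 3 months. The groups overlapped through replicate 6 at 3 months, and the other 4 libraries at 3 months were below all at 10 months. The difference was 0.24 ± 0.12 on the log2 scale (interval -0.00 to 0.48, edgeR adjusted p = 0.237). With each library's GC slope as a covariate, chosen after the data were seen, it was 0.25 and was called (adjusted p = 0.0415). Olig2 (chr16:91225550-91228677), needed to form the lineage, differed with age by 0.17 ± 0.10 in KI and 0.18 ± 0.10 in control, and by 0.17 ± 0.07 averaged over genotypes (adjusted p = 0.119). Sox10 (chr15:79154913-79164490), which drives myelin genes, differed by -0.20 ± 0.17 in KI and 0.05 ± 0.17 in control.

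Members called between KI and control by edgeR were 0 of 10 at 10 months, where 0.0612% of all genes tested were called, and 0 of 10 at 3 months, where 0.0255% were. Averaged over ages the count was again 0 of 10, against 0.0764%, and in the interaction it was 0 of 10, against 0%. At an unadjusted p under 0.05, Gpr17 passed at 10 months, where 7.86% of all genes did, and on average, where 6.52% did. None of the 10 passed at 3 months, where 3.8% of all genes did, or in the interaction, where 4.5% did. DESeq2 and limma-voom also called 0 of 10 in these 4 comparisons. The groups of KI and control overlapped for all 10 genes at both ages, where 1.49% of all genes did not overlap at 10 months and 0.657% at 3 months.

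To set the stages against each other, the mean log2 CPM of Pdgfra, Cspg4 and Vcan was subtracted from that of Gpr17, Neu4, Bcas1 and Enpp6 in each library. The difference averaged -0.58 ± 0.15 in KI and -0.49 ± 0.37 in control at 10 months. At 3 months it averaged -0.38 ± 0.07 in KI and -0.34 ± 0.13 in control (n = 5 each, SD). KI at 10 months was lower than KI at 3 months by 0.21, with overlap, and control at 10 months was lower than control at 3 months by 0.14, less than the SD of the 10-month controls. KI differed from control by -0.10 at 10 months and -0.03 at 3 months, both less than the SD within the groups. Without control replicate 9 at 10 months the genotype difference at 10 months was 0.042, and the age difference in control was -0.28. Among 10-month controls the difference ran from -0.87 in replicate 7 to 0.07 in replicate 9, wider than in any other group.

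The mean of the committed genes was 4.32 ± 0.16 in KI at 10 months against 4.53 ± 0.10 in KI at 3 months, while the precursor mean was 4.91 ± 0.09 against 4.91 ± 0.05. Leaving out Bcas1 moved the age difference in KI to -0.34, and leaving out Neu4 moved it to -0.29. The difference was not computed without Gpr17, the called gene, so the part of Gpr17 in it was not tested. A shift of the committed genes as a set can therefore not be read from it. By gene, the age differences in KI were -0.60 for Gpr17, -0.43 for Enpp6, 0.04 for Neu4 and 0.19 for Bcas1. In control they were -0.41, 0.05, 0.01 and 0.06 in the same order. In CPM, Gpr17 over Pdgfra was 0.431 ± 0.0461 in KI and 0.595 ± 0.242 in control at 10 months. At 3 months the ratio was 0.682 ± 0.131 in KI and 0.829 ± 0.0574 in control. The KI libraries at 10 months, 0.364 to 0.482, were all below those at 3 months, 0.490 to 0.825.

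**Figure D3:**
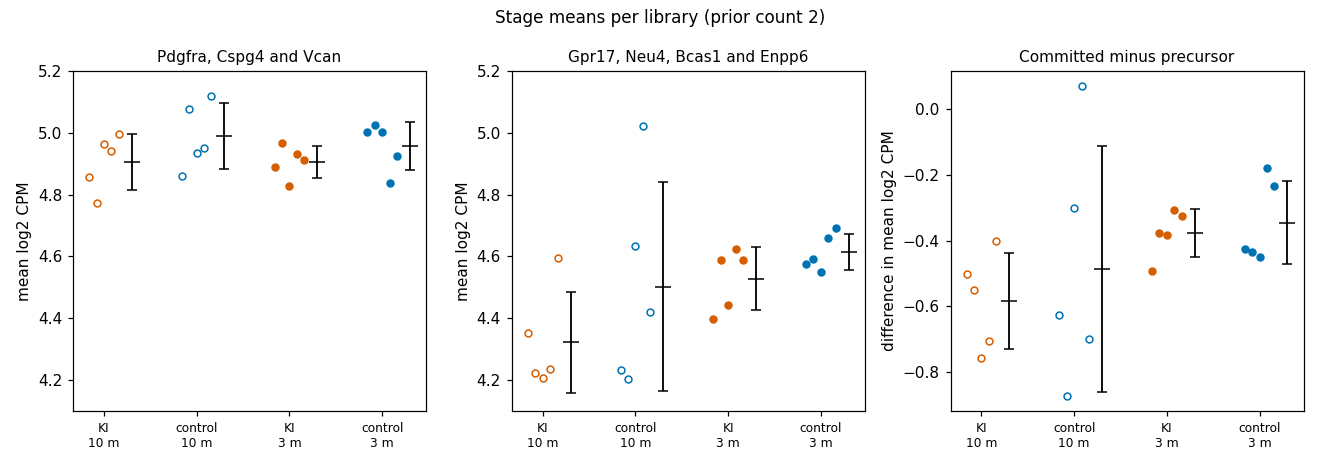
Mean log2 CPM of the precursor genes (left), of the committed genes (middle) and their difference (right) per library and group, with the group mean and SD; the left and middle panels share a scale that does not start at 0. The precursor means of all groups overlap, and control replicate 9 at 10 months stands highest in the committed mean and in the difference.

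Other genes of the course were read from lists, beside the 8.06% of all genes tested that were called with age in KI, 2.41% as lower, and the 4.07% called in control. Of 15 tested precursor markers outside the 10, 0 were called with age in KI and 1 in control. That 1 was Susd5, lower in control, at -0.51 ± 0.08 (edgeR adjusted p = 0.00028), beside -0.24 ± 0.08 in KI (adjusted p = 0.0671). Their median was -0.10 in KI and -0.03 in control, beside medians of -0.0031 and -0.0034 over all genes tested. Of 14 other committed-stage markers, 2 were called lower in KI and 0 in control. These were Tmem163, a zinc transporter, at -0.31 ± 0.09 (adjusted p = 0.0334), and Cnksr3, at -0.34 ± 0.10 (adjusted p = 0.045). In control Tmem163 stood at -0.28 ± 0.09 and Cnksr3 at 0.08 ± 0.10. Without KI replicate 3 at 3 months and KI replicate 5 at 10 months, Tmem163 was called (-0.33, adjusted p = 0.0362) and Cnksr3 was not (-0.27, adjusted p = 0.1397). With each KI library left out in turn, each of these genes was called in 3 of 10 fits. Of the rest of the list, 5 had fold changes above 0 in KI and 7 below. Tns3, which links integrins to the cytoskeleton, was at 0.17 ± 0.08 in KI (adjusted p = 0.2204) and 0.12 ± 0.08 in control, and Nkx2-2, which initiates differentiation, at -0.31 ± 0.16 in KI (adjusted p = 0.278) and -0.06 ± 0.16 in control. The committed list's median was -0.06 in KI and 0.05 in control.

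Of 20 mature oligodendrocyte genes, 1 was called with age in KI and 0 in control, against 8.06% and 4.07% of all genes tested. Trf, which encodes transferrin, was higher by 0.42 ± 0.12 in KI (edgeR adjusted p = 0.0334) and by 0.36 ± 0.12 in control (adjusted p = 0.125). It was also called in KI without the same 2 libraries (0.46, adjusted p = 0.0322), but in 3 of 10 fits with each KI library left out. The list's median was 0.03 in KI and -0.04 in control, and its summed level was 4768 ± 480 CPM in KI and 4256 ± 534 CPM in control at 10 months, against 4426 ± 342 CPM in KI and 4347 ± 736 CPM in control at 3 months. Among 25 ligands and receptors of the lineage, 1 was called in KI and 0 in control. Without the 2 libraries 3 were called in KI and 2 in control, where 1571 and 1050 of all genes tested were called. The gene called with all libraries was Igf1, a growth factor that promotes oligodendrocyte survival and that microglia make. Igf1 was higher by 0.60 ± 0.10 in KI (edgeR adjusted p = 0.00051) and 0.32 ± 0.10 in control (adjusted p = 0.104). Igf1 was called in KI in 10 of 10 fits with a library left out. Microglia markers were called higher with age for 12 of 14 in both genotypes, at sums of 959 to 1289 CPM in KI and 790 to 1051 CPM in control at 10 months and of 376 to 431 CPM in KI and 341 to 425 CPM in control at 3 months, and their part in the Igf1 value was not tested.

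Among 25 differentiation regulators, 2 were called in KI and 0 in control, against 8.06% and 4.07% of all genes tested. These were Tcf7l2, lower, and Sall1, higher at 0.25 ± 0.07 (edgeR adjusted p = 0.0399). In control Sall1 was at 0.24 ± 0.07 (adjusted p = 0.0761). The part of other cell types, microglia among them, in the Sall1 value was not tested. Without KI replicate 3 at 3 months and KI replicate 5 at 10 months, Tcf7l2 was called in KI and Sall1 was not (0.24, adjusted p = 0.0632), and 3 regulators were called in control. Among all genes tested in that fit, 1571 were called in KI and 1050 in control. Of 18 proliferation genes, 0 were called in KI and 1 in control, against 8.06% and 4.07% of all genes tested with all libraries. It was Cdk1, at 0.95 ± 0.20 in control (edgeR adjusted p = 0.00612), beside 0.15 ± 0.20 in KI. Between KI and control, 0 genes were called in any of the 14 lists at 10 months or at 3 months.

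Within groups, after subtraction of each group's mean, the 10 genes fell into 2 directions over the 20 libraries by the sign of Pearson's r. Some r were near 0, such as 0.029 for Cspg4 with Enpp6 and -0.019 for Vcan with Bcas1. Cspg4 with Sox10 had r of 0.874 (Spearman's rho 0.826), Olig1 with Sox10 0.812 (rho 0.704) and Gpr17 with Neu4 0.781 (rho 0.441). Control replicate 9 at 10 months was the highest library in both Gpr17 and Neu4. Pdgfra with Vcan had r of 0.622, while Pdgfra had -0.653 with Olig2 and -0.587 with Sox10. These r are descriptions over libraries that share a table and a scaling. The genes most like Pdgfra were Arhgap29 (r = 0.929), Egfr (0.923), Gpalpp1 (0.869), Blm (0.869) and Slc1a3 (0.865), all over 20 libraries. Those most like Gpr17 were Mpzl1 (0.792), Fyn (0.786), Ncan (0.780), Rab15 (0.770) and Scamp2 (0.769), with Spearman's rho of 0.574 for Mpzl1 and 0.590 for Fyn. Those most like Sox10 were Phldb1 (0.965), Cdc42ep1 (0.958), Gltp (0.951), Rhog (0.951) and Llgl1 (0.951). The summed proliferation list had r of 0.827 with Gpr17 (rho 0.696). Other summed lists had r of similar size with other genes of the 10. The neuron list had 0.877 with Sox10 and 0.818 with Cspg4, and the mature oligodendrocyte list 0.827 with Bcas1. The pericyte list had 0.728 with Cspg4 (rho 0.747) and 0.655 with Sox10. The fibroblast list had 0.091 with Pdgfra and -0.402 with Vcan, and the thalamus list -0.119 with Gpr17. In control the mean proliferation sum was higher at 10 than at 3 months, while mean Gpr17 was lower. In KI that sum differed with age by less than the SD of either group. A link of Gpr17 to cell division was not tested.

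The same 2 directions were seen against base composition. Each library's slope of expression on transcript GC content was taken over 19405 genes. Within groups, Vcan, at 43.7% GC, had r of -0.778 with that slope and Pdgfra, at 48.1% GC, -0.682. Sox10, at 61.8% GC, had r of 0.906, Cspg4, at 59.2% GC, 0.865, and Olig1, at 61.1% GC, 0.697. Gpr17, at 53.4% GC, had 0.548, and Enpp6, at 42.3% GC, had 0.218. The genes most like Sox10 had 54.1% to 60.1% GC, those most like Gpr17 49.3% to 55.3% and those most like Pdgfra 42.7% to 45.7%. The median over genes tested was 49.6%. The part of this slope in the correlations among the 10 genes, and in those with the genes most like them, was not tested. With the slope as a covariate the age difference of Gpr17 in KI was -0.61 (edgeR adjusted p = 0.00457).

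**Figure D4:**
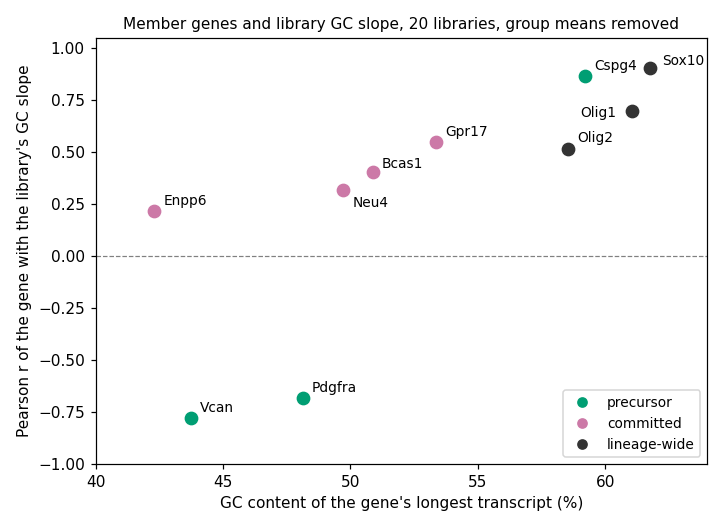
Pearson's r of each gene with the library's GC slope, over 20 libraries with group means removed (vertical axis), against the GC content of its longest transcript in percent (horizontal axis). Vcan and Pdgfra lie below 0, and the other 8 genes lie above 0 with Sox10 highest at 0.906.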

How the data were processed

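Total RNA from cortex was sequenced, and the authors deposited raw counts per gene for all 20 libraries in 1 table with coordinates, exonic length, symbols and biotypes. Per the submitters' processing notes the reads were placed on mm10. Aligner, counter, use of strand and annotation release: not given in the sources used here. Libraries were mapped to samples by the library names of the labels. Counts were analysed in R 4.3.3 with edgeR 4.0.16: filterByExpr left 19623 genes, libraries were scaled by TMM, and a robust quasi-likelihood F test was fitted to the 4 group means over 20 libraries (16 residual degrees of freedom). There were 6 contrasts: KI against control at each age and averaged, 10 against 3 months in KI and in control, and the interaction of age with genotype. Benjamini-Hochberg adjustment ran over all genes tested within a contrast, with calls at 0.05, so every adjusted p is of edgeR unless another tool is named. Log2 fold changes have their SE and 95% interval. Stage means used log2 CPM with a prior count of 2 and have no test.

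The 10 genes and the 14 other gene lists were chosen with earlier results of these data known. All 10 genes were named in every contrast. From a list that is described, genes were named among the 4 of smallest unadjusted p in the contrast described, beside their values in the other genotype. Lims2 was named for its overlap with Gpr17, after its values were seen. The 5 genes most like Pdgfra, Gpr17 and Sox10 were those of highest Pearson's r, at a mean of at least 1 CPM. GC content was that of the longest transcript in GENCODE vM21, and 98.9% of genes tested had a value. Promoters came from RefSeq. The fits were repeated with DESeq2 1.42.0, with limma-voom 3.58.1 and quality weights, with RLE scaling, without the low-count filter, with genes of at least 1 CPM on average, with only the compared libraries, with a replicate block, at a threshold of 0.10, without KI replicate 3 at 3 months and KI replicate 5 at 10 months together, and without each library in turn. A GC slope covariate, the age contrast averaged over genotypes and the list calls with libraries left out were added after the data were seen. The scripts were tested on simulated data. Replicates differed by more than counting error, with a chi-square per degree of freedom of 10.9 to 125.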

Additional observations from a re-analysis of the deposited data

Results flagged for a closer look

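Of 44 groups of values looked at, 5 held a library far from the other 4 of its group, where chance gives about 1 in 20 groups, here 2.2. In control at 3 months, replicate 10 was the library in 3 of them. Its Gpr17 was 51.99 CPM against 62.81 to 65.98 CPM in the others, its Bcas1 was 142.1 CPM against 91.48 to 105.6 CPM, and its Olig1 was 33.44 CPM against 28.92 to 29.72 CPM. Its mature oligodendrocyte markers summed to 5554 CPM, against 3644 to 4391 CPM in the others. In control at 10 months, replicate 6 had Cspg4 at 11.04 CPM against 15.24 to 15.63 CPM. In the same group replicate 9 had Neu4 at 13.69 CPM against 7.725 to 9.291 CPM.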

How the results depend on the processing

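Gpr17 at 10 against 3 months in KI kept its direction and its call under every setting run, with adjusted p from 0.00147 (DESeq2) to 0.0306, and from 0.00967 to 0.0435 with a library left out. Of the 580 values of the 10 genes under other settings, 34 had another sign, 2 became called and 0 lost a call. The 2 were Gpr17 with age in control under limma-voom, where 1 of 10 genes was called, and Olig1 with age in KI under the GC slope covariate, where 2 were called. With libraries left out in turn, 0 to 1 of 10 were called with age in control. None of the values of other sign was called, and the cause was not tested. Genes called at 3 months between genotypes were 12 with DESeq2, 12 with limma-voom and 11 with the GC covariate, against 5. At 10 months they were 59, 75 and 87, and 7 with only the compared libraries, against 12, and 7 to 14 with a library left out. Averaged over ages they were 49, 58 and 69, and 31 at a threshold of 0.10, against 15, and 10 to 17 with a library left out. With age in KI they were 3027 with limma-voom, 958 with only the compared libraries and 4068 with the GC covariate, against 1582. With age in control they were 1254 with limma-voom and 1998 with the GC covariate, against 799. The interaction had 4 with DESeq2 and 3 with limma-voom, against 0. The committed minus precursor difference with age in KI was -0.29 without Neu4 and -0.34 without Bcas1, and the interaction was -0.14 without Bcas1. No such difference was computed without Gpr17. With a library left out that difference ran from -0.059 to 0.0091 between genotypes at 3 months, -0.19 to 0.042 at 10 months, -0.11 to 0.0049 averaged over ages, -0.25 to -0.16 with age in KI, -0.28 to -0.045 with age in control and -0.16 to 0.074 in the interaction. With limma-voom the values of other sign were Pdgfra -0.053 and Bcas1 0.0078 for KI against control at 3 months, Cspg4 0.0097, Enpp6 0.021, Olig1 0.025 and Sox10 0.035 for KI against control averaged over ages, Enpp6 -0.16 for 10 against 3 months in control. Without KI replicate 3 at 3 months and KI replicate 5 at 10 months the values of other sign were Pdgfra -0.037 and Bcas1 0.014 for KI against control at 3 months, Cspg4 0.041 and Olig1 0.013 for KI against control averaged over ages, Neu4 -0.015 for 10 against 3 months in KI, Neu4 -0.033 for the interaction. With the GC slope covariate the values of other sign were Pdgfra -0.0050 for KI against control at 3 months, Cspg4 0.00086 and Olig1 0.010 for KI against control averaged over ages. With RLE scaling the values of other sign were Vcan -0.0019 for 10 against 3 months in KI. With DESeq2 the values of other sign were Vcan -0.0017 for 10 against 3 months in KI. With 1 library left out the ranges that crossed 0 were Pdgfra -0.037 to 0.068, Bcas1 -0.11 to 0.054, Cspg4 -0.051 to 0.16 and Sox10 -0.059 to 0.16 for KI against control at 3 months, Olig1 -0.042 to 0.15 for KI against control at 10 months, Cspg4 -0.079 to 0.021, Olig1 -0.071 to 0.027, Bcas1 -0.027 to 0.059, Pdgfra -0.043 to 0.012 and Enpp6 -0.15 to 3.6e-05 for KI against control averaged over ages, Pdgfra -0.0089 to 0.099, Vcan -0.065 to 0.086, Cspg4 -0.19 to 0.010 and Neu4 -0.012 to 0.082 for 10 against 3 months in KI, Neu4 -0.15 to 0.084, Bcas1 -0.034 to 0.16, Enpp6 -0.097 to 0.20, Sox10 -0.082 to 0.16 and Olig1 -0.012 to 0.18 for 10 against 3 months in control, Neu4 -0.039 to 0.18, Olig2 -0.072 to 0.047 and Gpr17 -0.30 to 0.011 for the interaction. Depth limits Enpp6 most, at 130 to 433 counts per library.

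The labels' replicate numbers showed no pairing. KI libraries are numbered 3 to 7 and controls 6 to 10, so a replicate block compares the genotypes only through numbers 6 and 7. Among 18 pairs sharing a number, correlations of the deviations from group means ran from -0.343 to 0.284 with 3 above 0.1, and for 1 of 20 libraries the own number was the best match. With the replicate block, genes called were 4 at 3 months, 4 at 10 months, 4 averaged over ages, 1192 with age in KI, 653 with age in control and 0 in the interaction, and members called were 0, 0, 0, 1, 0 and 0. With the replicate block the values of other sign were Pdgfra -0.087, Neu4 0.0089, Bcas1 0.25, Olig1 0.13 and Olig2 0.057 for KI against control at 3 months, Cspg4 0.15, Neu4 0.069, Olig2 0.053 and Sox10 0.17 for KI against control at 10 months, Cspg4 0.21, Neu4 0.039, Enpp6 0.22, Olig1 0.22, Olig2 0.055 and Sox10 0.27 for KI against control averaged over ages, Neu4 -0.016 for 10 against 3 months in control.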
